A study of Mus musculus with 2 samples.

Results

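The genes described here are the inhibitors of cyclin-dependent kinases (CDKs) other than p21: Cdkn1b, Cdkn1c, Cdkn2a, Cdkn2b, Cdkn2c, Cdkn2d and Cdkn3. They were taken by symbol from the deposited gene list, and all 7 were found among its 32285 genes. The data are droplet RNA counts of single mouse hematopoietic stem cells, with blood as the labelled tissue. The cells were cultured in suspension for 48 h with either the vehicle dimethyl sulfoxide (DMSO) or the compound labelled RO-3066, whose target and dose the labels do not give. The name resembles that of RO-3306, a known inhibitor of Cdk1, and the labels do not settle whether that compound was used, so no value here is read as an effect of inhibiting a given kinase. Strain, sex and age of the mice were also not stated. Each treatment has 1 library, so every value below describes that library, and no difference was tested.

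CDKs drive the cell through its division cycle when a cyclin binds them, and the inhibitors hold them back. The INK4 proteins, encoded by Cdkn2a (p16Ink4a), Cdkn2b (p15Ink4b), Cdkn2c (p18Ink4c) and Cdkn2d (p19Ink4d), bind Cdk4 and Cdk6 and keep them from D-type cyclins. The Cip/Kip proteins p27Kip1 (Cdkn1b) and p57Kip2 (Cdkn1c), relatives of p21, bind whole cyclin-CDK complexes. Cdkn3 stands apart, as it encodes a phosphatase that removes the activating phosphate from CDKs. In hematopoietic stem cells p57 is known for holding cells in quiescence, p18 for limiting self-renewal, and Cdkn2a for being silenced by Polycomb complexes.

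The genes lie on 5 chromosomes of the mm10 assembly. Cdkn2a (chromosome 4, 89274471 to 89294653, minus strand) and Cdkn2b (89306299 to 89311039, minus strand) are neighbours, and Cdkn2c lies on the same chromosome (109660876 to 109667189, minus strand). Cdkn1b is on chromosome 6 (134920401 to 134925513, plus strand), Cdkn1c on chromosome 7 (143458339 to 143461050, minus strand), Cdkn2d on chromosome 9 (21288410 to 21291407, minus strand) and Cdkn3 on chromosome 14 (46760541 to 46771669, plus strand). In GENCODE vM21 the only annotated gene that overlaps any of them is Gm44732, antisense to Cdkn1c. It had 0.00574 CPM in DMSO and 0.00611 CPM in RO-3066, where CPM is the count of unique molecular identifiers (UMIs, each standing for a captured transcript) scaled to a library total of 1e6. Cdkn2a has 2 transcripts, for p16Ink4a and p19Arf, with separate starts and shared last exons, so a count of transcript 3' ends does not tell them apart.

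The start regions of 4 genes are printed because these genes had higher levels in cells rich in proliferation transcripts, as described further on. Each runs 5' to 3' on the gene's strand from 250 bases before to 50 bases after the start (RefSeq, GRCm38.p6). Capitals mark matches on either strand to TTTGAA, the core of the cell cycle homology region found in promoters of late cell cycle genes, and to CCAAT, the box bound by NF-Y. The regions are chr14:46760291-46760590 (Cdkn3, plus strand), chr6:134920151-134920450 (Cdkn1b, plus strand), chr9:21291160-21291459 (Cdkn2d, minus strand) and chr4:109666707-109667006 (Cdkn2c, the first of 2 listed starts, minus strand).
Cdkn3: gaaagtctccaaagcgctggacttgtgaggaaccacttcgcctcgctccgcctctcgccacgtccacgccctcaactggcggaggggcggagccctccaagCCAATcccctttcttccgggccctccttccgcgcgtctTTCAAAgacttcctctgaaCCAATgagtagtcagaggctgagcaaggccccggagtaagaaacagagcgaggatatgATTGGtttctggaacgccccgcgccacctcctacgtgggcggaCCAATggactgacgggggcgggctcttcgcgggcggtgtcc
Cdkn1b: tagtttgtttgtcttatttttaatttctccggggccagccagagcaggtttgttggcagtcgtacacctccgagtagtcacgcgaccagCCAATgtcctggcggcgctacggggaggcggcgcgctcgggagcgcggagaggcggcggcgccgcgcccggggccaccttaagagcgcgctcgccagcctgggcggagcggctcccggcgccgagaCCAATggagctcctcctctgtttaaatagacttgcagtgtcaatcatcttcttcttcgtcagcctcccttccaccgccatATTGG
Cdkn2d: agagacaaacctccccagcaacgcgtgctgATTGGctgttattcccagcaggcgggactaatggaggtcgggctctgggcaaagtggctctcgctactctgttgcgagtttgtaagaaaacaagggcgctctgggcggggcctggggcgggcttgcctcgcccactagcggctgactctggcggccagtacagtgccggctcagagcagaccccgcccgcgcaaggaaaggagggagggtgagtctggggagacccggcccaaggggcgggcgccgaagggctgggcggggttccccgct
Cdkn2c: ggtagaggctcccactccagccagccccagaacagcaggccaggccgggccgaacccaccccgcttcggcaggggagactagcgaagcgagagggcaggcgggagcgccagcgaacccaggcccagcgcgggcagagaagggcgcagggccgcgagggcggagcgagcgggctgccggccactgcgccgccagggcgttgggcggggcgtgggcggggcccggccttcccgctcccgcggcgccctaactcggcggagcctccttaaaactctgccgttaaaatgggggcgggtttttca
The Cdkn3 region held 1 TTTGAA match, 111 bases before the start, and 4 CCAAT matches. Of 32544 regions of this length in the RefSeq table, 17.8% had at least 1 TTTGAA match, 37.4% at least 1 CCAAT match, 6.92% both and 1.06% at least 4 CCAAT matches. The regions of Cdkn1b and Cdkn2d had 3 and 1 CCAAT matches and 0 of TTTGAA, and that of Cdkn2c had 0 of either, while the region of its second start (chr4:109665323-109665622) had 1 CCAAT match and 0 of TTTGAA. Among members whose regions are not printed, Cdkn2b had 1 TTTGAA match, 161 bases before the start, and 0 of CCAAT. The 2 listed starts of Cdkn2a had 0 TTTGAA matches each, and 0 and 1 of CCAAT. No region was available for Cdkn1c. A match describes the letters and no bound site.

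Kept cells numbered 5832 in DMSO, with 174248630 UMIs and a median of 23970.5 per cell, and 3681 in RO-3066, with 163611542 UMIs and a median of 34760. The libraries share 7 cell barcodes. Values in parentheses after a level, share or fold are 95% exact bounds for counting error alone. The 10 stem cell markers summed to 387 CPM in DMSO and 452 CPM in RO-3066, although Procr was under 5 CPM in both. The 10 megakaryocyte genes summed to 5481 and 4783 CPM, most of it Pf4 (platelet factor 4, at 5129 and 4216 CPM). The 8 erythroid genes summed to 210.0 and 467 CPM, and the 9 neutrophil and monocyte genes to 145 and 142 CPM, with Ly6c2 at 0. The 7 lymphoid genes summed to 39.1 and 65.6 CPM, nearly all from Nkg7, with Cd3e and Il7r at 0. The 6 mast cell and basophil genes summed to 7.56 and 9.33 CPM, and the 7 endothelial and stromal genes to 27.6 and 41.1 CPM, with Pdgfra at 0.

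Most of the inhibitors' captured transcripts came from 3 genes. Cdkn2d made up 39.9% of the members' UMIs in DMSO and 39.1% in RO-3066, Cdkn3 27.2% and 30.5%, and Cdkn1b 21.9% and 18.5%. Cdkn2c and Cdkn1c were low, and Cdkn2a and Cdkn2b were below 1 CPM. UMIs count transcript ends and are not scaled to length, and capture differs between genes, so this order describes captured transcripts.

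Among the INK4 genes, Cdkn2d was at 77.2 CPM (75.9 to 78.5) in DMSO and 62.5 CPM (61.3 to 63.7) in RO-3066, 0.810-fold (0.789 to 0.831). Cdkn2c was at 12.2 CPM (11.7 to 12.7) and 7.52 CPM (7.11 to 7.96), 0.617-fold (0.575 to 0.662), the lowest ratio among the 5 members over 5 CPM. Of the Cip/Kip genes, Cdkn1b was at 42.3 CPM (41.4 to 43.3) in DMSO and 29.7 CPM (28.8 to 30.5) in RO-3066, 0.701-fold (0.676 to 0.727). These 3 genes were lower in RO-3066. Cdkn1c was at 8.54 CPM (8.11 to 8.98) and 10.8 CPM (10.3 to 11.3), 1.26-fold (1.18 to 1.35), and was the only one of the 5 that was higher. The phosphatase gene Cdkn3 was at 52.6 CPM (51.5 to 53.7) and 48.8 CPM (47.7 to 49.9), 0.927-fold (0.900 to 0.956). For reference p21 (Cdkn1a) was at 23.9 and 51.0 CPM, 2.14-fold (2.06 to 2.22).

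Of the 7 members 5 had a mean level of at least 5 CPM. A gene was counted as different where the ratio reached 1.5-fold after adding a pseudocount of 1 CPM. By that rule 0 of the 7 were higher and 1, Cdkn2c, was lower in RO-3066, 4 lay between and 2 (Cdkn2a and Cdkn2b) were under the level. Among all 9083 genes at that level 4.6% were higher and 2.01% lower. The median log2 ratio of the 5 members was -0.30 and that of all genes -0.01. Cdkn2c was near the threshold, with a log2 ratio of -0.63 that became -0.42 in cells thinned to 10000 UMIs and was then no longer counted. The Cdkn1c log2 ratio of 0.30 became 0.66 in cells of 15000 to 40000 UMIs and 1.246 in cells of over 40000 UMIs. The share of Pf4-rich cells at that depth differed between the libraries, and ratios split by depth and Pf4 are given further on. The Cdkn1b log2 ratio of -0.50 lay between -0.67 and -0.05 over the alternatives tried, and its values by depth are given with the Pf4 classes.

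Cdkn2a and Cdkn2b, the INK4 genes linked to senescence, were barely captured. Cdkn2a had 53 UMIs in 47 DMSO cells and 45 UMIs in 38 RO-3066 cells, that is 0.304 CPM (0.228 to 0.398) and 0.275 CPM (0.201 to 0.368), and no cell held more than 3. Cdkn2b had 78 UMIs in 71 cells and 90 UMIs in 77 cells, at 0.448 CPM (0.354 to 0.559) and 0.550 CPM (0.442 to 0.676). For both genes the bounds of the whole libraries overlap, so a difference between these was not detectable at this depth. Within classes of Pf4 the ratio bounds of Cdkn2a excluded 1, though not in every range of UMIs per cell, as given with those classes.

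**Figure D1:**
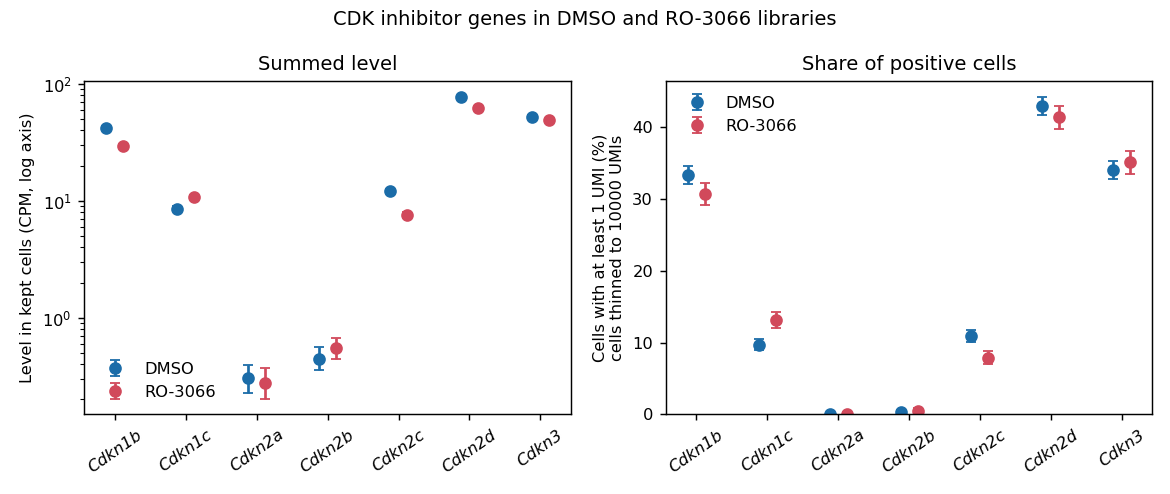
Summed level in CPM on a log axis (left) and share of cells with at least 1 UMI after thinning every cell to 10000 UMIs (right) for the 7 genes in each library, with bars for 95% exact bounds of counting error. Cdkn2d, Cdkn3 and Cdkn1b are highest in both libraries, and Cdkn2a and Cdkn2b lie below 1 CPM.

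Shares of positive cells were compared after thinning each cell to 10000 UMIs, because RO-3066 cells were deeper. This left 5750 DMSO and 3557 RO-3066 cells, without 82 and 124 shallower ones. Cdkn2d was found in 43.0% (41.7 to 44.2) and 41.4% (39.8 to 43.0) of cells, and unthinned in 68.4% and 76.0%. Cdkn1b was found in 33.4% (32.2 to 34.6) and 30.7% (29.2 to 32.3), and unthinned in 62.3% and 66.7%. Both genes thus had the higher unthinned share but the lower thinned share in the deeper library. Cdkn2c was found in 10.9% (10.1 to 11.7) and 7.90% (7.03 to 8.84) (unthinned 26.6% and 25.1%), in the order of its levels. Cdkn1c was found in 9.72% (8.97 to 10.5) and 13.2% (12.1 to 14.3) (unthinned 19.3% and 31.8%), also in the order of its levels. For Cdkn3 the thinned shares, 34.1% (32.8 to 35.3) and 35.1% (33.6 to 36.7), went against the level, so no order is read from them, and the unthinned shares were 55.4% and 69.5%. Thinned shares of Cdkn2a were 0.122% and 0.112% (unthinned 0.806% and 1.03%), and those of Cdkn2b 0.383% and 0.534% (unthinned 1.22% and 2.09%). No cell type known to lack these genes was set apart to show what share free RNA gives, and its part was not tested.

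At 10000 UMIs 21.3% of DMSO cells and 21.6% of RO-3066 cells held no UMI of any of the 7 genes, 39.5% and 40.4% held those of 1 gene, and 27.3% and 27.1% those of 2. Cdkn2d and Cdkn3 were found together in 911 DMSO cells, where the product of their shares gives 842, and in 557 RO-3066 cells against 517. Cdkn1b and Cdkn3 met in 734 cells against 654 in DMSO and in 377 against 384 in RO-3066.

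Cells were next compared by their content of the proliferation transcripts Mki67, which encodes the Ki-67 antigen of dividing cells, and Top2a, which encodes the topoisomerase that untangles replicated chromosomes. The low class held cells with at most 2.33 such UMIs per 10000, the 25th percentile of DMSO cells, and the high class those with at least 12.3, the 75th percentile, and the same limits were used in RO-3066. The low class held 1458 DMSO and 411 RO-3066 cells with medians of 18137 and 24785 UMIs, and the high class 1458 and 710 cells with medians of 28746.5 and 23938 UMIs. Within 10% of the low and high limits lay 237 and 596 DMSO cells and 109 and 228 RO-3066 cells. The classes are ranges of a continuous share and no cell types.

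Cdkn2c, Cdkn2d, Cdkn3 and Cdkn1b were all higher in the high class of both libraries. Cdkn2c passed 1.5-fold in both, Cdkn2d in DMSO and Cdkn3 in RO-3066, and the remaining ratios lay between 1.42-fold and 1.49-fold. Of the 7 members 2 were at least 1.5-fold higher and 0 lower in DMSO, where 7.23% of 8929 genes were higher and 1.93% lower. In RO-3066 these counts were also 2 and 0, beside 11.2% and 2.72% of 9200 genes. The median log2 ratio of the 5 measured members was 0.56 in DMSO and 0.56 in RO-3066, beside 0.10 and 0.16 over all genes.

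Cdkn2c was at 5.78 CPM (4.97 to 6.70) in the low and 16.4 CPM (15.4 to 17.6) in the high class of DMSO, 2.84-fold (2.42 to 3.36). In RO-3066 it was at 5.46 CPM (4.21 to 6.98) and 14.7 CPM (13.1 to 16.3), 2.68-fold (2.05 to 3.56). The levels of the 2 libraries were close at either end and lay apart between the limits, at 12.0 CPM in DMSO and 6.51 CPM in RO-3066, 0.544-fold (0.497 to 0.596). Over 10 groups of cells in order of Mki67 plus Top2a, with limits from DMSO, Cdkn2c went from 5.56 CPM in the first to 18.01 CPM in the last in DMSO, and from 5.33 to 16.01 CPM in RO-3066. At the fifth group DMSO was at 11.8 CPM and RO-3066 at 6.05 CPM. The thinned share of positive cells was 5.71% (4.55 to 7.06) in the low and 15.8% (13.9 to 17.8) in the high class of DMSO, and 4.84% (2.89 to 7.54) and 13.1% (10.6 to 15.8) in RO-3066.

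Cdkn2d was at 42.3 CPM (40.0 to 44.6) in the low and 103 CPM (100.4 to 106) in the high class of DMSO, 2.44-fold (2.30 to 2.596). The RO-3066 library had 54.2 CPM (50.1 to 58.6) and 76.8 CPM (73.2 to 80.6), 1.42-fold (1.29 to 1.56). RO-3066 cells were thus higher than DMSO cells in the low class, 1.28-fold (1.16 to 1.41), and lower in the high class, 0.744-fold (0.704 to 0.786). Cells high in Pf4, as defined in the next comparison, were 366 of 1458 high-class cells in DMSO and 63 of 710 in RO-3066. In the low class they were 270 of 1458 and 39 of 411. The part of this mix was not tested, and levels split by both measures are given with the Pf4 classes. The thinned shares went the same way, from 30.3% (27.9 to 32.7) to 57.0% (54.4 to 59.6) in DMSO and from 35.5% (30.6 to 40.6) to 50% (46.2 to 53.8) in RO-3066. In RO-3066 cells of over 40000 UMIs the log2 ratio of the classes, 0.50 over all cells, was -0.09.

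Cdkn3 was at 42.5 CPM (40.2 to 44.8) in the low and 62.9 CPM (60.8 to 65.1) in the high class of DMSO, 1.48-fold (1.39 to 1.58). The RO-3066 library had 30.6 CPM (27.5 to 33.9) and 61.2 CPM (58.0 to 64.6), 2.003-fold (1.78 to 2.26). The high classes were close and the low class was lower in RO-3066, 0.720-fold (0.639 to 0.810). In cells with 0 UMIs of Mki67 and Top2a, 264 in DMSO and 79 in RO-3066 with medians of 13831 and 14082 UMIs, Cdkn3 was at 22.2 CPM (17.6 to 27.6) and 10.8 CPM (5.60 to 18.9). It was found in 12.3% (8.25 to 17.4) and 10% (3.33 to 21.8) of these cells after thinning, against 42.4% (39.9 to 45.0) and 39.9% (36.2 to 43.7) in the high class. In cells of over 40000 UMIs the DMSO log2 ratio of the classes, 0.56 over all cells, was -0.06.

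By cell cycle phase, called on thinned cells, Cdkn3 was at 13.8 CPM in 214 cells called G1, 22.9 CPM in 2101 called S and 67.4 CPM in 3435 called G2M in DMSO. In RO-3066 it was at 5.64 CPM in 96 cells called G1, 21.2 CPM in 578 called S and 53.8 CPM in 2883 called G2M. Cdkn3 was highest in G2M in both. The G2M list holds Mki67 and Top2a, so phases and classes share genes, and the part of free RNA in the calls was not tested.

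Cdkn1b, the p27 gene, was at 38.5 CPM (36.3 to 40.7) in the low and 55.5 CPM (53.4 to 57.5) in the high class of DMSO, 1.44-fold (1.35 to 1.54). The RO-3066 library had 33.7 CPM (30.5 to 37.2) and 50.3 CPM (47.3 to 53.3), 1.49-fold (1.33 to 1.68). The course between the ends was not even. Over the 10 groups Cdkn1b was at 38.1 CPM in the first, 31.4 CPM in the fifth and 62.2 CPM in the last in DMSO, and at 42.6 CPM in the first, 19.9 CPM in the third and 54.3 CPM in the last in RO-3066. By phase call the DMSO levels were 52.2 CPM in G1, 30.4 CPM in S and 47.6 CPM in G2M, and those of RO-3066 48.1, 29.9 and 29.3 CPM. The libraries were close in cells called G1, 0.922-fold (0.719 to 1.18), and S, 0.985-fold (0.897 to 1.08), and apart in those called G2M, 0.616-fold (0.592 to 0.642).

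Cdkn1c, the p57 gene, was the one member over 5 CPM that was lower in the high class of DMSO. It was at 12.2 CPM (11.0 to 13.5) in the low and 7.84 CPM (7.09 to 8.64) in the high class, 0.643-fold (0.558 to 0.742), just short of the threshold once the pseudocount is added. In RO-3066 it was at 15.1 CPM (12.96 to 17.5) and 16.1 CPM (14.4 to 17.8), 1.06-fold (0.885 to 1.28). RO-3066 exceeded DMSO more in the high class, 2.05-fold (1.77 to 2.37), than in the low class, 1.24-fold (1.03 to 1.49). Megakaryocyte markers summed to 5806 CPM in the high class of DMSO and 2105 CPM in that of RO-3066, and to 4369 and 4247 CPM in the low class. Among high-class cells that were also low in Pf4, as defined in the next comparison, the ratio was 1.35-fold (1.08 to 1.67), in those between the Pf4 limits 1.70-fold (1.38 to 2.10) and in those high in Pf4 0.824-fold (0.285 to 1.95), the last on 6 against 40 UMIs. Thinned shares in the low and high class were 12.8% (11.1 to 14.7) and 9.34% (7.89 to 11.0) in DMSO and 16.4% (12.8 to 20.6) and 15.1% (12.5 to 18.1) in RO-3066. In cells of over 40000 UMIs the DMSO log2 ratio of the classes, -0.58 over all cells, was -0.02, and the RO-3066 ratio of 0.08 became -0.04 in thinned cells and -0.16 with limits at the 10th and 90th percentiles.

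**Figure D2:**
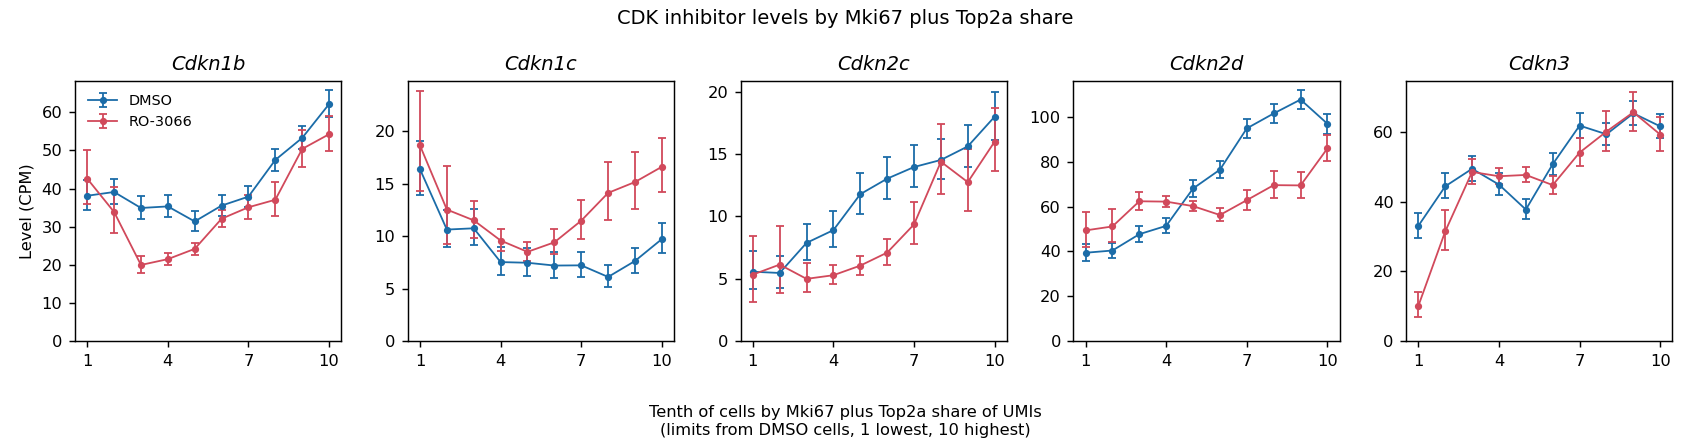
Level in CPM of the 5 genes over 5 CPM in 10 groups of cells ordered by the Mki67 plus Top2a share of UMIs, with limits from DMSO cells and bars for 95% exact Poisson bounds. Cdkn2c goes from 5.56 to 18.01 CPM and Cdkn2d from 39.4 to 97.1 CPM in DMSO, and Cdkn1b dips between the ends in both libraries.

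Cdkn2a and Cdkn2b gave few counts by class. In DMSO Cdkn2a had 7 UMIs in the low and 20 in the high class, 1.71-fold (0.693 to 4.78). In RO-3066 it had 0 and 10. Its high-class level there was 0.456 CPM (0.219 to 0.839), against an exact upper bound of 0.315 CPM for the 0 of the low class, and the exact lower bound of the ratio was 1.199-fold. Cdkn2b had 10 and 26 UMIs in DMSO, 1.55-fold (0.725 to 3.61), and 7 and 14 in RO-3066, 1.07-fold (0.404 to 3.13). For Cdkn2a in RO-3066 the bounds of the low and high class levels overlap, although the bound of the ratio lies above 1. The other 3 ratios have bounds on both sides of 1, so for them no difference was detectable at this depth.

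Cells were then compared by the share of their UMIs from Pf4, a chemokine gene of platelets and the megakaryocytes that make them. The low class held at most 2.11 Pf4 UMIs per 10000 and the high class at least 26.9, again the 25th and 75th percentiles of DMSO. In DMSO they held 1458 and 1458 cells with medians of 21528 and 33551 UMIs. In RO-3066 they held 1343 (36.5% of the library) and 739 (20.1%) cells with medians of 25333 and 78967 UMIs, so depth moved with the class. Within 10% of the limits lay 323 and 166 DMSO cells and 237 and 78 RO-3066 cells. From the low to the high class stem cell markers went from 537 to 276 CPM in DMSO and from 646 to 329 CPM in RO-3066. Megakaryocyte markers, which include Pf4, went from 179.8 to 12397 and from 246 to 10850.5 CPM, and erythroid markers from 465 to 39.6 and from 907 to 188 CPM. The part of these markers' cells in the differences was not tested.

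Cdkn1c was far lower in Pf4-rich cells, Cdkn2d was higher there in both libraries, and Cdkn1b was lower there in RO-3066. Of the 7 members 1 was at least 1.5-fold higher and 1 lower in DMSO, beside 7.56% and 10.8% of genes. In RO-3066 1 was higher and 2 were lower, beside 8.77% and 12.0%. The median log2 ratio of the 5 measured members was 0.10 in DMSO and -0.33 in RO-3066, beside -0.02 and -0.09 over all genes.

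Cdkn1c was at 16.6 CPM (15.2 to 18.1) in the low and 2.11 CPM (1.78 to 2.47) in the high class of DMSO, 0.127-fold (0.105 to 0.152). In RO-3066 it was at 20.4 CPM (19.0 to 21.9) and 2.77 CPM (2.37 to 3.20), 0.136-fold (0.114 to 0.160). Cells above the 95th percentile of Pf4, 292 in DMSO and 144 in RO-3066, held 28 and 22 UMIs of it, at 1.15 CPM (0.764 to 1.66) and 1.498 CPM (0.939 to 2.27). Thinned shares in the low and high class were 15.2% (13.4 to 17.2) and 2.56% (1.81 to 3.50) in DMSO and 19.3% (17.2 to 21.6) and 2.31% (1.35 to 3.68) in RO-3066. Within the 3 classes of Mki67 plus Top2a the ratio of Pf4-rich to Pf4-poor cells lay between 0.108-fold and 0.141-fold in DMSO and between 0.0662-fold and 0.147-fold in RO-3066. The ratio of RO-3066 to DMSO was 1.23-fold (1.10 to 1.37) in the low and 1.31-fold (1.05 to 1.64) in the high class. The high-class ratio differed by depth, as given with that of Cdkn1b.

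Cdkn2d was at 51.2 CPM (48.8 to 53.7) in the low and 108 CPM (105 to 110.0) in the high class of DMSO, 2.10-fold (1.99 to 2.22). The levels in RO-3066 were 47.0 CPM (44.8 to 49.2) and 81.2 CPM (79.0 to 83.5), 1.73-fold (1.64 to 1.83). Above the 95th percentile of Pf4 it was at 149.6 CPM (145 to 155) and 109 CPM (104 to 115), the highest levels of this gene in any Pf4 class. Thinned shares in the low and high class were 38.9% (36.3 to 41.5) and 52.8% (50.2 to 55.4) in DMSO and 38.1% (35.4 to 40.8) and 52.9% (49.2 to 56.6) in RO-3066. In DMSO Cdkn2d was at 31.4 CPM in cells low in both Pf4 and Mki67 plus Top2a and at 143 CPM in cells high in both. In RO-3066 these values were 41.4 and 94.5 CPM.

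Cdkn1b was at 42.8 CPM (40.6 to 45.1) in the low and 38.5 CPM (37.1 to 40.0) in the high class of DMSO, 0.900-fold (0.844 to 0.961). The levels in RO-3066 were 44.4 CPM (42.2 to 46.6) and 18.6 CPM (17.6 to 19.7), 0.420-fold (0.390 to 0.453). The libraries were close among Pf4-poor cells, 1.04-fold (0.965 to 1.11), and apart among Pf4-rich cells, 0.484-fold (0.452 to 0.518). Thinned shares in the low and high class were 33.4% (30.9 to 35.9) and 30.9% (28.6 to 33.4) in DMSO and 36.0% (33.4 to 38.7) and 20.3% (17.4 to 23.4) in RO-3066. Over 10 groups by Pf4 the RO-3066 level went from 47.3 CPM in the first to 17.1 CPM in the last, and the DMSO level from 43.1 to 37.3 CPM.

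Because depth moved with Pf4, Cdkn1b was also read within ranges of UMIs per cell, the range over 40000 and the split of Pf4 classes being chosen after the data were seen. Over all cells of 15000 to 40000 UMIs RO-3066 was at 0.965-fold (0.916 to 1.02) of DMSO, and over all cells of over 40000 UMIs at 0.619-fold (0.584 to 0.656). Within 15000 to 40000 UMIs the ratio was 1.10-fold (1.02 to 1.19) in Pf4-poor cells, 0.843-fold (0.781 to 0.910) between the limits and 0.663-fold (0.475 to 0.903) in Pf4-rich cells, the last with 50 RO-3066 cells. Over 40000 UMIs these values were 0.889-fold (0.646 to 1.2505), with 23 DMSO cells, 0.673-fold (0.586 to 0.775) and 0.498-fold (0.462 to 0.537). The order from Pf4-poor to Pf4-rich cells was the same in both ranges.

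Cdkn2c was at 11.2 CPM (10.1 to 12.4) and 12.1 CPM (11.3 to 12.9) in the low and high class of DMSO, 1.07-fold (0.950 to 1.22), and at 7.87 CPM (6.99 to 8.83) and 6.07 CPM (5.49 to 6.71) in RO-3066, 0.772-fold (0.661 to 0.902). Its RO-3066 ratio turned over in cells of 15000 to 40000 UMIs, at 1.003 on the log2 scale. The level was lower in RO-3066 than in DMSO at both ends, 0.701-fold (0.598 to 0.820) in Pf4-poor and 0.503-fold (0.445 to 0.568) in Pf4-rich cells. Within 15000 to 40000 UMIs these ratios were 0.636-fold (0.528 to 0.764) and 1.08-fold (0.684 to 1.64), so the direction in Pf4-rich cells turned, on 50 RO-3066 cells. Cdkn3 was at 48.4 CPM (46.0 to 50.8) and 55.6 CPM (53.9 to 57.4) in DMSO, 1.15-fold (1.08 to 1.22), and at 46.5 CPM (44.3 to 48.7) and 55.0 CPM (53.2 to 56.8) in RO-3066, 1.18-fold (1.12 to 1.254). Among cells low in Mki67 plus Top2a its Pf4 ratio was 1.83-fold (1.57 to 2.13) in DMSO and 2.43-fold (1.88 to 3.15) in RO-3066, and among cells high in them 0.926-fold (0.840 to 1.02) and 0.934-fold (0.7996 to 1.09).

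Of the rare INK4 genes, Cdkn2a lay mostly in Pf4-rich cells of the DMSO library. Of its 53 UMIs there 46 were in the high and 0 in the low class, 0.646 CPM (0.473 to 0.862) against an exact upper bound of 0.113 CPM for the 0. The exact lower bound of this ratio was 5.48-fold. Of these 46 UMIs 39 were in Pf4-rich cells of over 40000 UMIs, a depth that only 23 Pf4-poor DMSO cells had. The 0 UMIs of those 23 cells gave an upper bound of 3.50 CPM. Within 15000 to 40000 UMIs the DMSO counts were 7 and 0, at 0.291 CPM (0.117 to 0.600) against an upper bound of 0.125 CPM. The part of depth was not tested. After thinning 5 of 1448 Pf4-rich cells were positive and 0 of 1430 Pf4-poor cells, with overlapping bounds (0.112% to 0.804% and 0% to 0.258%). In RO-3066 there were 9 UMIs in the low and 18 in the high class, 1.14-fold (0.487 to 2.88). RO-3066 was at 0.433-fold (0.236 to 0.761) of DMSO in Pf4-rich cells and at 2.90-fold (1.16 to 8.21) between the limits, on 18 against 7 UMIs, and in Pf4-poor cells, with 9 against 0 UMIs, the exact lower bound was 1.75-fold. Within 15000 to 40000 UMIs these counts were 0 against 7, 4 against 6 and 2 against 0, with ratio bounds that include 1. Over 40000 UMIs the Pf4-rich ratio was 0.344-fold (0.185 to 0.615). Between the limits it was 2.18-fold (0.332 to 92.2) at that depth, and Pf4-poor cells had 7 against 0 UMIs, with 23 DMSO cells. Cdkn2b was lower in Pf4-rich cells of both libraries, with 23 UMIs in the low and 24 in the deeper high class of DMSO, 0.478-fold (0.258 to 0.886), and 34 and 31 in RO-3066, 0.520-fold (0.309 to 0.872).

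**Figure D3:**
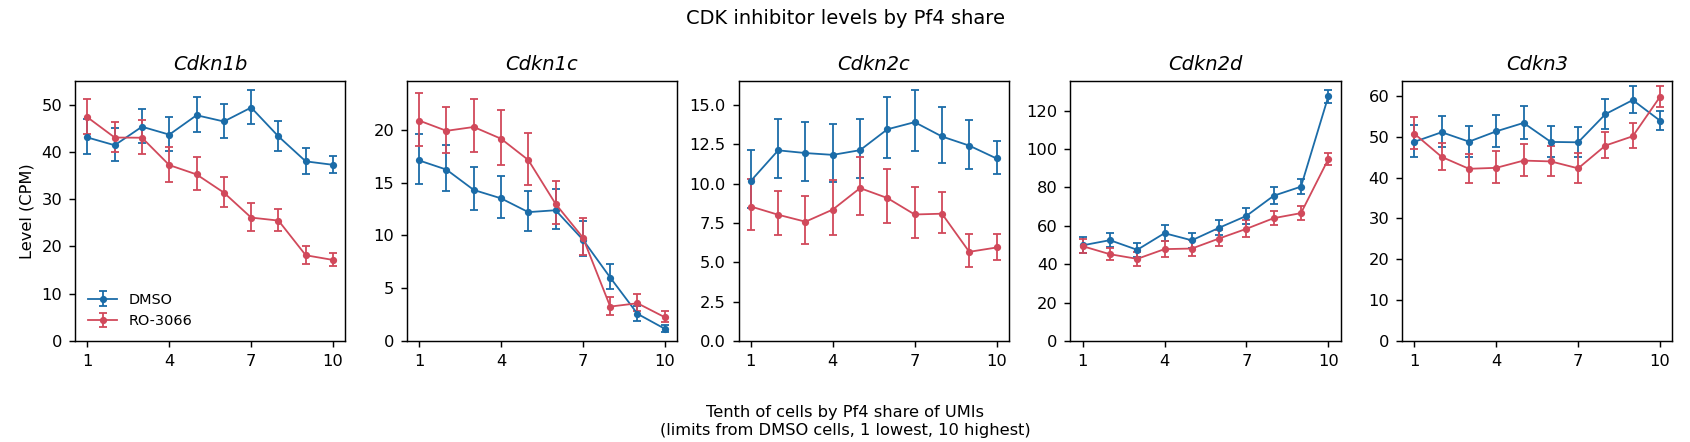
Level in CPM of the 5 genes over 5 CPM in 10 groups of cells ordered by the Pf4 share of UMIs, with limits from DMSO cells and bars for 95% exact Poisson bounds. From the first to the last group Cdkn1c goes from 17.1 to 1.15 CPM in DMSO and from 20.9 to 2.25 CPM in RO-3066, Cdkn2d is highest in the last group, and Cdkn1b separates the libraries toward high Pf4.

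**Figure D4:**
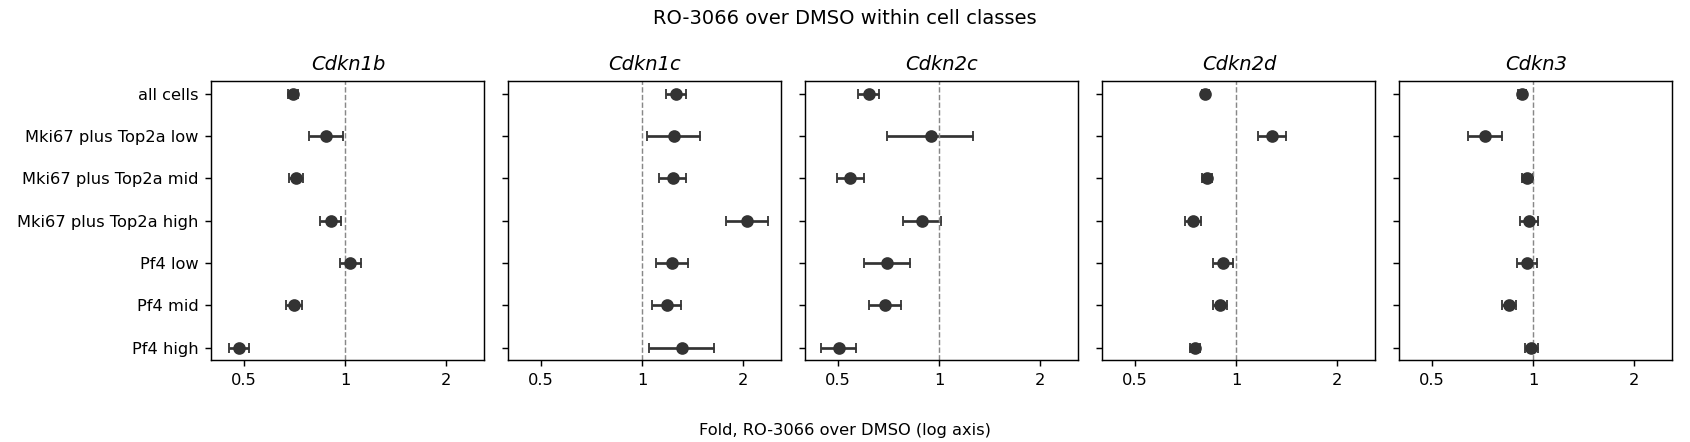
Ratio of RO-3066 to DMSO on a log axis for the genes over 5 CPM in all cells and within classes of Mki67 plus Top2a and of Pf4, with bars for 95% exact bounds of counting error. The Cdkn1b ratio is 1.04 in Pf4-poor and 0.484 in Pf4-rich cells, and the Cdkn2d ratio is 1.28 in the low and 0.744 in the high class of Mki67 plus Top2a.

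The p21 gene Cdkn1a, given for comparison, was at 38.5 CPM in the low and 15.7 CPM in the high class of Mki67 plus Top2a in DMSO and at 82.8 and 69.3 CPM in RO-3066. By Pf4 it was at 13.6 and 32.9 CPM in DMSO and at 49.6 and 48.4 CPM in RO-3066.

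The members were also set against each other and against other genes over 18 strata, the 3 Mki67 plus Top2a classes by the 3 Pf4 classes in each library. The log2 levels of each gene were first centred within each library, so the correlations leave out the difference in mean level between the libraries. Differences between the libraries in the course over the strata stay in them. Pearson correlations are given as descriptions, as strata share libraries and depth. Cdkn2d and Cdkn3 had 0.75, Cdkn2c and Cdkn3 0.62, Cdkn1b and Cdkn2c 0.59, and Cdkn1c and Cdkn2d -0.75. The genes most like Cdkn1b were Slc38a2 (0.96), Ap2b1 (0.95) and Dpp8 (0.95), where the 95th percentile over 5303 candidate genes was 0.85. Those of Cdkn1c were Ifi203 (0.99), S100a4 (0.99) and Apbb1ip (0.99), with a 95th percentile of 0.90. Cdkn2c was most like Ap1m1 (0.97) and the histone genes Hist1h3c (0.97) and Hist1h2af (0.97), with a 95th percentile of 0.82. Cdkn2d was most like Rab14 (0.98), Tnrc6a (0.95) and Ckap2l (0.94), with a 95th percentile of 0.79, and Cdkn3 most like Prpf38a (0.94), Cmc2 (0.94) and Ube2s (0.93), with a 95th percentile of 0.74.

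Partners and regulators of the inhibitors were read from 4 lists. The counts for RO-3066 against DMSO stand beside 4.6% higher and 2.01% lower among all 9083 genes of at least 5 CPM. Of 12 kinases and cyclins that they bind, 0 were at least 1.5-fold higher and 2 lower in RO-3066, Ccne1 and Ccne2, cyclins of S phase entry, with a list median of 0.06 on the log2 scale. Ccne2 was at 33.5 CPM in RO-3066 and 68.7 CPM in DMSO, 0.488-fold (0.472 to 0.504). Ccna2, the cyclin of S phase and G2, was at 0.697-fold, and the D-type cyclin gene Ccnd2 at 1.35-fold. Between cells high and low in Mki67 plus Top2a 3 of this list were higher (Cdk1, Ccna2 and Ccnb1) and 3 lower (Ccnd1, Ccne1 and Ccne2) in DMSO, and 4 higher (Cdk1, Ccna2, Ccnb1 and Ccnb2) and 0 lower in RO-3066. Over all genes 7.23% were higher and 1.93% lower in DMSO, and 11.2% and 2.72% in RO-3066. In Pf4-rich cells Cdk6, a kinase bound by the INK4 proteins, and the D-type cyclin gene Ccnd3 were higher, with log2 ratios of 0.90 and 0.66 in DMSO and 0.99 and 0.86 in RO-3066. Ccnd2 was past the threshold in RO-3066 alone (1.03, with 0.45 in DMSO), and Ccnd1, another D-type cyclin gene, was lower in DMSO (-0.74) and at 0.19 in RO-3066.

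Of 13 pocket proteins and E2F factors 2 were higher in RO-3066, E2f1 and E2f2, and 1, E2f7, was lower, with a list median of 0.03. E2f1, a transcription factor held back by the retinoblastoma protein, was at 58.6 CPM in RO-3066 and 37.5 CPM in DMSO, 1.56-fold (1.51 to 1.61), whereas Tfdp2 was at 1.26-fold and E2f6 at 0.799-fold. In Pf4-rich cells Rb1 was higher, at 0.87 in DMSO and 0.66 in RO-3066 on the log2 scale, as was E2f8, at 1.41 and 1.11. The other pocket protein genes Rbl1 and Rbl2 were lower there, at -0.45 and -0.35 in DMSO, short of the threshold, and past it in RO-3066 at -0.68 and -0.70, where E2f2 was also counted as higher. Of 11 symbols listed for p27 turnover 10 were in the deposited gene list, and all 10 of these were measured. Among them 0 were higher and 2 lower in RO-3066, with a median of -0.10. The lower ones were Rbx1, a subunit of ubiquitin ligases, at 344 CPM in RO-3066 and 548 CPM in DMSO, 0.628-fold (0.622 to 0.635), and the nuclear import gene Kpna1 at 0.656-fold, while the deubiquitinase gene Usp19 was at 1.28-fold. Of 22 transcriptional regulators 16 were measured, 0 were higher and 0 lower, with a median of -0.09. Mycn was at 0.809-fold, Eed, a Polycomb subunit, at 0.822-fold and Id1 at 0.853-fold.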

How the data were processed

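The data are UMI counts per gene and cell from 2 libraries, DMSO and RO-3066, grouped by the treatment in the labels. Per the labels, the 10x Genomics 3' workflow was used. The authors deposited unnormalized counts; Cell Ranger 5.0.1 and mm10 are named in the submitters' processing notes and Cell Ranger 7.1.0 in the file headers. For the annotation release and the treatment of intron reads, neither source says what was used.

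A minimum of 1000 UMIs and 500 genes and a maximum of 10% mitochondrial UMIs removed 26 barcodes from DMSO and 84 from RO-3066. Doublets, scored by simulated doublets among 50 neighbours, were called at 0.8% per 1000 barcodes and removed (302 and 117, 4.92% and 3.08%). UMIs were summed over cells as CPM. A call is a 1.5-fold difference with a pseudocount of 1 among genes of at least 5 CPM. There was no test, as each group has 1 library. Poisson and Clopper-Pearson intervals cover counting error. Phases were called with scanpy 1.11.5. The calculation was tested on simulated data. Gene positions are from GENCODE vM21.

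The members and lists were chosen with earlier results of these data known. Genes named are the 7 members, Cdkn1a, Mki67, Top2a, Pf4, the 3 largest ratios per list at 20 CPM or more, and the 3 most alike genes per member. Other genes named (changed list genes, marker genes, and list genes by class) were chosen after their values were seen. Alternatives tried were other cells, weights, scalings, floors, folds, pseudocounts, class limits and thinning depths. Software was scipy 1.17.1 and numpy 2.4.6 under Python 3.11.15, with pandas 2.3.3.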

Additional observations from a re-analysis of the deposited data

Results flagged for a closer look

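The first value is a difference between Pf4 classes. Cdkn1b was higher in RO-3066 than in DMSO among Pf4-poor cells (log2 0.05) and lower among Pf4-rich cells (-1.01), a gap of -1.06. The second concerns Cdkn1c, which was lower in cells high in Mki67 and Top2a in DMSO (-0.58) and higher in RO-3066 (0.08), a gap of 0.66. The third concerns Cdkn2c, which was higher in Pf4-rich cells in DMSO (0.10) and lower in RO-3066 (-0.33), a gap of -0.42. The last concerns Cdkn2d, which was higher in RO-3066 among cells low in Mki67 and Top2a (0.35) and lower among those high in them (-0.42), a gap of -0.77. Each stands here because the direction was opposite in the 2 libraries or classes. With 1 library per treatment none of these differences was tested. The counting intervals of the RO-3066 ratio of Cdkn1c, the DMSO ratio of Cdkn2c and the Pf4-poor ratio of Cdkn1b include 1.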

How the results depend on the processing

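No paired analysis was possible because each group has 1 library, and no library could be left out. Each of 25 member ratios was recomputed under 11 or 12 alternatives, which gave 295 values in all. Of the 25 ratios 19 kept their direction in each alternative and 0 called ratios changed direction. The ratios that turned were Cdkn1c by Mki67 plus Top2a in RO-3066, Cdkn2c by Pf4 in both libraries, Cdkn2d by Mki67 plus Top2a in RO-3066 and Cdkn3 by both measures in DMSO, each in 1 or 2 alternatives. Of 79 counts of called members 62 stayed within 1.5 times. For RO-3066 against DMSO the count of 1 became 0 with every cell at the same weight, in cells thinned to 10000 UMIs, at a floor of 20 CPM, at a fold of 2, with a pseudocount of 5 and with median-ratio scaling (a shift of -0.06, log2), and 2 at the lower fold threshold tried, in cells of 15000 to 40000 UMIs (1 higher, 1 lower) and in cells of over 40000 UMIs. By Mki67 plus Top2a the count of 2 became 1 in each library at a floor of 20 CPM, 5 (DMSO) and 4 (RO-3066) at the lower fold threshold, 5 in DMSO with limits at the 10th and 90th percentiles and 1 in RO-3066 at a fold of 2. By Pf4 in DMSO the count of 2 became 1 at a floor of 20 CPM and in cells of over 40000 UMIs. Changes with the floor and fold follow from the setting; the cause of the others was not tested. The gap in the share of positive cells, RO-3066 minus DMSO in percentage points, went from -2.66 to -9.78 for Cdkn1b, from -3.00 to -9.32 for Cdkn2c, from -1.57 to -6.29 for Cdkn2d and from 1.07 to -1.13 for Cdkn3 in cells thinned to 20000 UMIs, and at 5000 UMIs to 2.08 for Cdkn1c (3.46 at 10000), -1.28 for Cdkn2c, -2.49 for Cdkn2d and 1.88 for Cdkn3. For Cdkn2a it went from -0.00928 to 0.0412 at 5000 and 0.0456 at 20000 UMIs, and for Cdkn2b from 0.152 to 0.0205 and 0.0549. At 20000 UMIs fewer cells are deep enough. Cdkn2a and Cdkn2b rest on under 100 UMIs in each library.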
